A study of Mus musculus with 18 samples.

Results

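The 30 genes described here encode proteins of neurons: tubulins and their partners, neurofilaments, RNA-binding proteins, transcription factors of the glutamatergic lineage, vesicular glutamate transporters, and membrane and vesicle proteins. They were taken from a written list, chosen with earlier results of these data known. Their values were read in sorted microglia, the phagocytes of the brain, from the embryonic hippocampus. All 30 had at least 1 probe set matched to no other gene, out of 18194 genes in all, and 67 probe sets measured them. Each gene was read from its probe set with the highest mean, and 29 of the 30 were bright enough to be tested, among 11630 genes. The question they answer is how much neuronal RNA, and which kind, the sorted cells held.

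The study compared microglia of mouse embryos at E17.5 (embryonic day) on the C57BL/6 background, with sex recorded as unknown. LPS arrays (n = 4) held wild-type microglia from dams inflamed with lipopolysaccharide, a bacterial endotoxin, and PBS arrays (n = 4) held wild-type microglia from dams given PBS. DAP12KO arrays (n = 4) held microglia of untreated DAP12-/- mutants, and UT arrays (n = 6) held untreated wild-type (DAP12+/+) microglia. In every group the cells were sorted by FACS for GFP at the Cx3cr1 locus after trypsin and DNase digestion of pooled hippocampi, and RNA was pooled per pregnant dam, so an array stands for a litter pool and not for an embryo. Labels carry a year, here called batch 1 to 4 in order of time, and nothing in the sources used here says what step the year dates. LPS and PBS each had 1 array in batch 1, 2 in batch 2 and 1 in batch 4. All 4 DAP12KO arrays fell in batch 4, and UT had 2 arrays in batch 3 and 4 in batch 4.

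Neurons of the hippocampus are born from radial glia and pass through a sequence of gene programmes. Newborn cells switch on Sox11, Nhlh1 and the NeuroD factors together with the tubulins and doublecortin that they need to migrate. Later they add the splicing factor Rbfox3, neurofilaments for axon calibre and the transporters that load glutamate into vesicles. Microglia descend from the yolk sac and do not pass through this sequence.

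Microglia genes were bright on every array. All 15 microglia markers with a probe set, such as Cx3cr1, P2ry12 and Csf1r, were above the near-floor threshold on 18 of 18 arrays. That threshold is a log2 value of 2.49, the 40th percentile of probe set means, and the lowest value on any array was 2.19. The mean of these 15 markers was 11.40 and 11.70 on the PBS arrays of batch 2, against 12.61 to 13.75 on the other arrays. The Gapdh 3′ minus 5′ difference, which grows as RNA is degraded or shortened, lay between 2.01 and 3.33 on arrays of batches 1 and 2. Arrays of batch 4 had 0.89 to 1.2, with UT replicate 2 alone at 2.23, and the UT arrays of batch 3 had 1.31 and 2.77. Tyrobp, which encodes DAP12, lay between 13.75 and 14.23 on the DAP12KO arrays, against 14.29 and 14.55 at the ends of the UT range. No source used here says whether its probe set lies in the deleted stretch, so this checks no label. In such bulk samples fewer cells of a type and less RNA per cell cannot be told apart.

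Neuronal RNA was measurable in every group and varied with the batch. Over the 29 tested genes the mean log2 value of an array was 7.19, 8.92, 8.81 and 8.01 for LPS in batches 1, 2, 2 and 4, and 7.71, 10.73, 10.70 and 8.54 for PBS in the same order. It was 7.01, 7.23, 6.68 and 7.07 for DAP12KO, and for UT the lowest, median and highest were 6.13, 7.08 and 7.89. The PBS arrays of batch 2 stood above all others and the UT arrays of batch 3 stood below all others. Single members followed that lower end less closely, since the UT arrays of batch 3 were the 2 lowest for 4 of 29, against 0.662% of all genes. Of the 30 genes, 20 were above the near-floor threshold on all 18 arrays, 9 on some of them, and Slc17a7 on none. On a single array 22 to 25 of the 30 were above it for DAP12KO, against 23 to 25 for UT, while the PBS arrays of batch 2 reached 29. The tested members spanned a median of 5.66 log2 units between their lowest and highest array, against 3.82 for all genes tested.

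**Figure D1:**
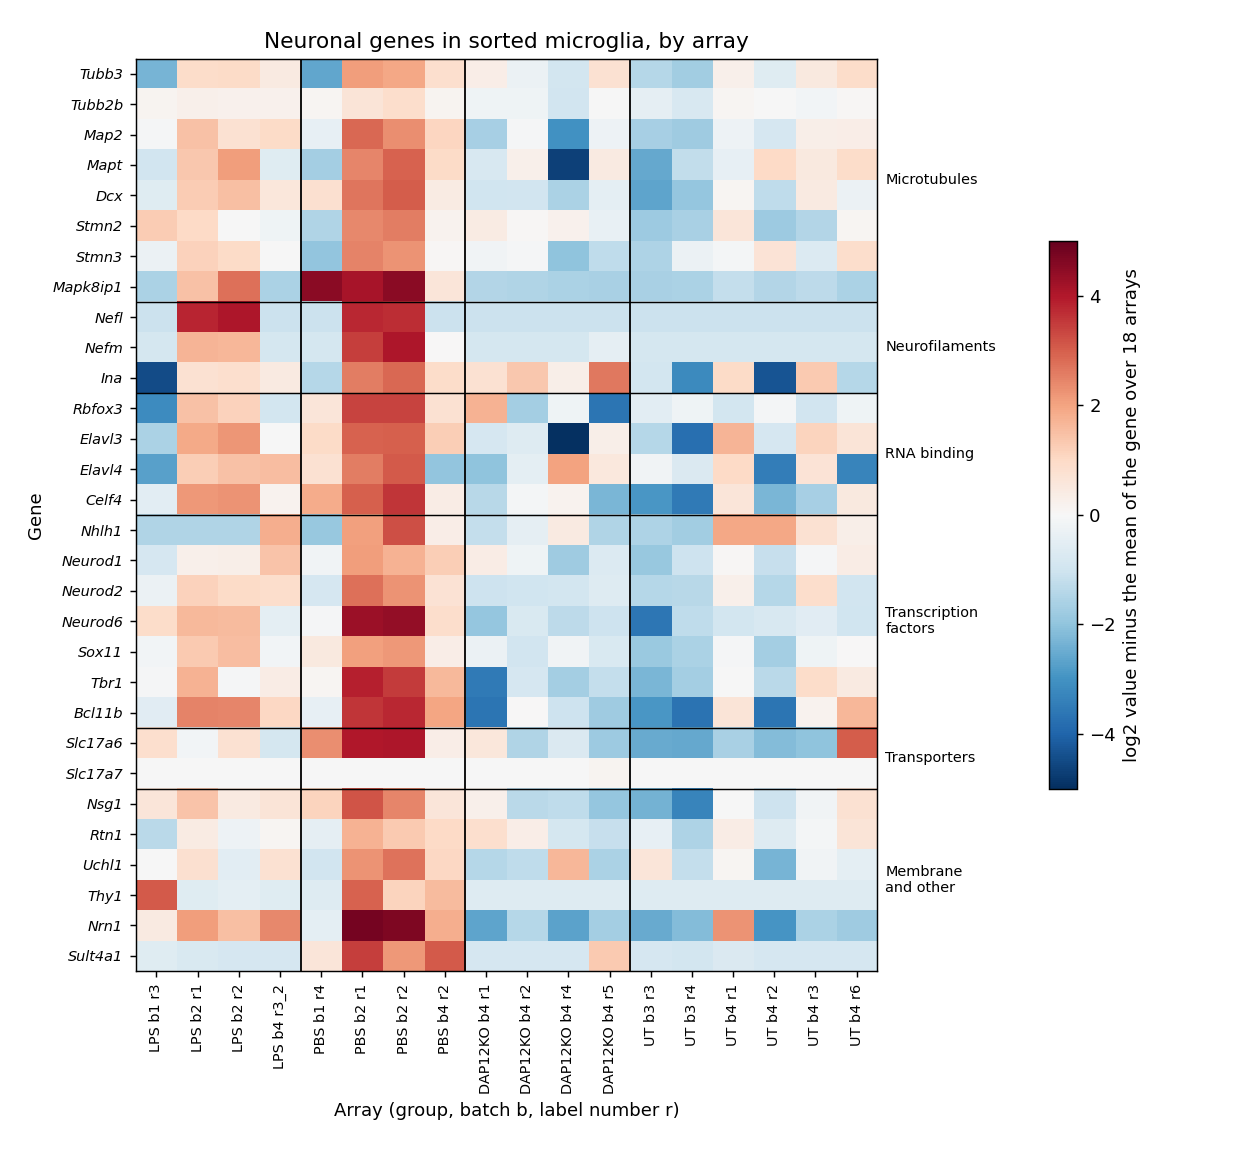
Log2 value of each of the 30 genes (rows, by role) on each of the 18 arrays (columns, by group, batch and label number), with the mean of the gene over the arrays taken off; colours are clipped at 5 units either way. The PBS arrays of batch 2 are red in nearly every row, and Slc17a7 is blank because it was near the floor on all 18 arrays.

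The PBS arrays of batch 2 were the 2 highest of 18 for 24 of the 29 tested genes (82.8%), against 12.2% of all genes tested. This count covered 7 of 7 transcription factors, 4 of 4 RNA-binding proteins, 7 of 8 microtubule genes, 4 of 6 membrane and other proteins and 1 of 3 neurofilament genes. The exceptions were Nefl, Ina, Thy1, Mapk8ip1 and Sult4a1. The same order held for 52 of the 60 tested probe sets of these genes, and for 28 of the 31 that were not the brightest of their gene. Of the 15 microglia markers 0 showed it, and of 16 cytoskeleton genes used by all cells 4 did. The microglia marker mean was at its lowest on the same arrays, and its part in the result was not tested. The list was chosen with the high neuronal values on these arrays already known. The excess over 12.2% is therefore no independent support.

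Microtubule genes came first in order of role and were mostly detected everywhere. Doublecortin (Dcx), which binds and bundles microtubules in migrating neurons, had log2 values of 9.88, 11.77, 11.997 and 11.05 on the LPS arrays (batches 1, 2, 2 and 4), against 11.30, 13.15, 13.50 and 10.88 on the PBS arrays. It had 9.49, 9.52, 8.88 and 9.98 on the DAP12KO arrays, against 7.83, 9.71 and 10.93 as the lowest, median and highest of UT. Dcx was high on both PBS arrays of batch 2 and low on both UT arrays of batch 3, and LPS overlapped PBS, as DAP12KO overlapped UT. Of all members it followed the mean of the other members most closely (Pearson r = 0.95 over 18 arrays and 0.89 over the 14 arrays outside batch 2, given as a description since arrays share a batch).

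Tubb3 and Tubb2b encode beta tubulins used by newborn neurons. Tubb2b had the narrowest range of all tested members, 13.57 to 15.40, and Tubb3 ran between 9.59 and 14.30. The lowest Tubb3 values were those of batch 1, at 9.89 for LPS and 9.59 for PBS. Map2, a microtubule protein of dendrites, ran between 7.09 and 12.98, and Mapt, the axonal protein tau, between 4.35 and 11.95. Both had their lowest value on DAP12KO replicate 4. Stmn2 and Stmn3, stathmins that bind free tubulin, ran between 7.15 and 11.53 and between 7.82 and 12.34.

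Mapk8ip1, a scaffold of JNK signalling that also links vesicles to kinesin motors, behaved otherwise. It had 2.39, 5.43, 6.72 and 2.39 on the LPS arrays of batches 1, 2, 2 and 4, against 8.48, 8.10, 8.49 and 4.55 on the PBS arrays. On the DAP12KO arrays it had 2.48, 2.44, 2.39 and 2.35, against 2.36, 2.45 and 2.79 as the lowest, median and highest of UT. The gene was thus near the floor on all DAP12KO arrays and on 3 of 6 UT arrays, high on 3 of 4 PBS arrays, and LPS and PBS overlapped through the PBS array of batch 4.

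Neurofilament chains were seen mostly in batch 2. Nefl, the light neurofilament chain, had 2.19, 7.09, 7.32 and 2.19 on the LPS arrays, against 2.19, 7.07, 6.97 and 2.19 on the PBS arrays, and 2.19 on every DAP12KO and UT array. On this probe set Nefl was therefore detected on 4 of 18 arrays, those of batch 2, where both LPS values lay above both PBS values by small margins. Its other probe set stayed between 2.19 and 2.20 on every array, so detection rests on the brighter one alone. Nefm, the medium chain, had 2.19, 4.75, 4.72 and 2.19 on the LPS arrays, against 2.19, 6.50, 7.10 and 3.08 on the PBS arrays, and outside batch 2 it was above the threshold only on the PBS array of batch 4 and on DAP12KO replicate 5 (2.62). Ina, the internexin that neurons assemble before the neurofilament triplet is complete, was above the threshold on all 18 arrays and ran between 3.12 and 10.47. It had 8.36, 8.92, 7.88 and 10.23 on the DAP12KO arrays, against 3.29, 6.43 and 8.89 as the lowest, median and highest of UT.

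RNA-binding proteins held the member with the widest range. Rbfox3 (NeuN), a splicing factor used to mark postmitotic neurons, had 2.95, 7.57, 7.25 and 5.16 on the LPS arrays, against 6.70, 9.45, 9.45 and 6.86 on the PBS arrays. Its DAP12KO values were 7.84, 4.37, 5.89 and 2.45, against 5.14, 5.73 and 5.97 as the lowest, median and highest of UT. The 4 DAP12KO arrays thus spread on both sides of a tight UT group. Elavl3, which stabilises transcripts of differentiating neurons, had the widest range of all members (9.95 log2 units), with 8.39, 8.58, 2.28 and 9.54 on the DAP12KO arrays, against 5.47, 9.14 and 10.94 for UT. Its relative Elavl4 ran between 3.83 and 10.38, and Celf4, an RNA-binding protein of excitatory neurons, between 5.75 and 12.83.

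All 7 transcription factors were above the threshold on 18 of 18 arrays. Neurod6, a factor of postmitotic pyramidal neurons, had 8.38, 9.05, 9.04 and 6.95 on the LPS arrays, against 7.38, 11.74, 11.86 and 8.34 on the PBS arrays. On the DAP12KO arrays it had 5.51, 6.70, 6.13 and 6.43, against 3.85, 6.48 and 6.89 for UT. Tbr1, which specifies early-born deep-layer neurons, had 6.26, 8.06, 6.26 and 6.68 on the LPS arrays, against 6.40, 10.21, 9.81 and 7.95 on the PBS arrays. The DAP12KO arrays had Tbr1 at 2.78, 5.45, 4.62 and 5.13, against 4.04, 5.63 and 7.23 for UT. Both genes were highest on the PBS arrays of batch 2, and groups overlapped in both comparisons.

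Neurod1, which drives differentiation of granule neurons, ran between 7.33 and 11.32, and Neurod2, a factor of maturing excitatory neurons, between 7.82 and 11.97. Sox11, expressed in newborn neurons of many lineages, ran between 10.91 and 14.90. Bcl11b, a zinc-finger factor of deep-layer and hippocampal neurons, ran between 4.05 and 11.52. Nhlh1, a factor switched on as neurons leave the cell cycle, had 3.99, 3.99, 3.99 and 7.28 on the LPS arrays, against 3.60, 7.52, 8.71 and 5.81 on the PBS arrays. On the DAP12KO arrays it had 4.27, 5.01, 5.94 and 3.99, against 3.75, 6.02 and 7.42 for UT. Nhlh1 was the member that followed the others least (r = 0.47 over 18 arrays), and several of its values coincide at a plateau near 3.99.

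NeuroD and Nhlh proteins bind short DNA motifs called E-boxes, and 4 of these factor genes are shown with the 250 bases before their start, because their values stood highest together on the PBS arrays of batch 2. Sequences are from RefSeq (GRCm38.p6), 5′ to 3′ on the strand of the gene, which is the minus strand for all 4. The windows are chr1:172057597-172057846 for Nhlh1, chr11:98329646-98329895 for Neurod2, chr2:79456637-79456886 for Neurod1 and chr6:55681264-55681513 for Neurod6. Capitals mark CAGATG or its reverse complement CATCTG, the E-box form preferred by NeuroD factors, and CAGCTG, which is its own reverse complement.
Nhlh1: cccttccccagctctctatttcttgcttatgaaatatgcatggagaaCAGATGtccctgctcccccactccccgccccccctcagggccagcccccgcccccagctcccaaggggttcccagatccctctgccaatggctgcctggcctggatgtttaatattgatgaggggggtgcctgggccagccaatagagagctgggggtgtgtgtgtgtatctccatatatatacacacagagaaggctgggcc
Neurod2: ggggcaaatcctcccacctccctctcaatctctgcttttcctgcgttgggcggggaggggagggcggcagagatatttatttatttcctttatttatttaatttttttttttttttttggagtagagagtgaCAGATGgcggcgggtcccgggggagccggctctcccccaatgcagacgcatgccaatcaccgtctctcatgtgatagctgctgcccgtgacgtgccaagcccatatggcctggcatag
Neurod1: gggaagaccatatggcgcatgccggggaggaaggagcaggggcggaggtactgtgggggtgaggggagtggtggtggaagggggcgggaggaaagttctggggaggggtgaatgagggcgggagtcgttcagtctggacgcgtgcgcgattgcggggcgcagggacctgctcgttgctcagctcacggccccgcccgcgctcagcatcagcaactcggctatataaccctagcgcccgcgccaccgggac
Neurod6: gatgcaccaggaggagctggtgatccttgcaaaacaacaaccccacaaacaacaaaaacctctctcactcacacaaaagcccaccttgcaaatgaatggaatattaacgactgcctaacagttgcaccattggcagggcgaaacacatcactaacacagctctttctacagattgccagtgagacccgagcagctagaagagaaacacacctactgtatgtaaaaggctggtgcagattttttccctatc
Nhlh1 and Neurod2 hold 1 CAGATG each, starting at position -203 and -118 from the gene start, and the windows of Neurod1 and Neurod6 hold neither form. Of the 30 genes 19 had a promoter in the table, with 26 windows between them. CAGATG on either strand was in 8 of these 26 windows (30.8%), against 14.4% of the 32851 windows of all genes. CAGCTG was in 5 of them (19.2%), against 13.0%, and TATAAA on either strand in 3 (11.5%), against 12.4%. A match describes the letters in a window and is not a measured binding site.

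The glutamate transporters differed between themselves in detection. Slc17a7 (VGLUT1), the transporter of mature cortical and hippocampal neurons, was at 2.19 on 17 arrays and 2.33 on DAP12KO replicate 5, and so was not tested. Slc17a6 (VGLUT2), used by many neurons before birth, had 5.59, 4.59, 5.49 and 3.87 on the LPS arrays, against 7.05, 8.75, 8.78 and 5.06 on the PBS arrays. On the DAP12KO arrays it had 5.30, 3.25, 4.01 and 2.94, against 2.19, 2.64 and 7.78 for UT. The UT maximum came from replicate 6 of batch 4 alone, since the next UT value was 3.13.

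Among the membrane and other proteins, Nsg1, a protein of neuronal endosomes, ran between 5.74 and 12.20, and Rtn1, a reticulon of the endoplasmic reticulum, between 8.93 and 12.22. Uchl1, a deubiquitinating enzyme abundant in neurons, ran between 5.95 and 10.98. Nrn1 (neuritin), a surface protein that promotes neurite growth, had 5.57, 7.20, 6.63 and 7.52 on the LPS arrays, against 4.64, 9.90, 9.79 and 6.95 on the PBS arrays. Its DAP12KO values were 2.49, 3.71, 2.44 and 3.43, against 2.19, 3.14 and 7.36 for UT. The UT maximum of Nrn1 came from replicate 1 of batch 4, which lay among the LPS and PBS values. Thy1, a surface glycoprotein of mature neurons, was above the threshold on 4 arrays: 1 LPS array of batch 1 at 5.90, and 3 PBS arrays at 5.79, 3.95 and 4.42.

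Sult4a1, a sulfotransferase of the brain with no settled substrate, had 2.50, 2.33, 2.27 and 2.27 on the LPS arrays, against 3.73, 6.56, 5.30 and 6.18 on the PBS arrays. Every LPS value lay below every PBS value. On the DAP12KO arrays it had 2.27, 2.27, 2.26 and 4.41, against 2.19, 2.27 and 2.38 for UT, so that 1 DAP12KO array stood apart from the rest.

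**Figure D2:**
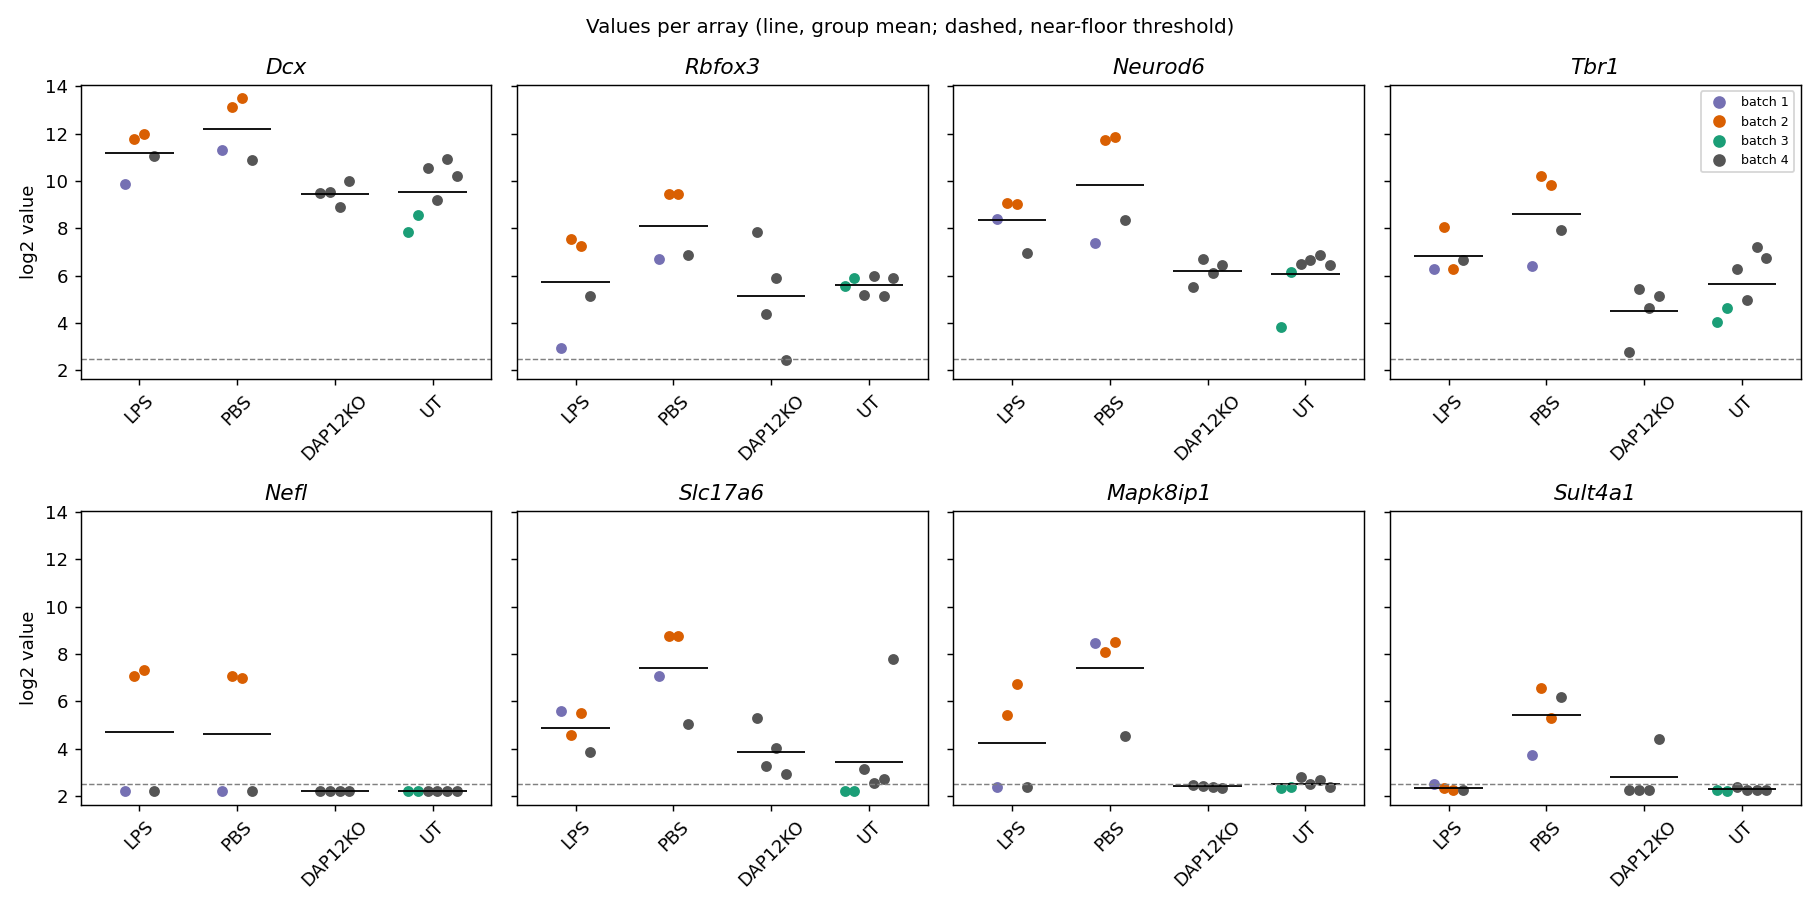
Log2 values of 8 members on each array, by group, with points coloured by batch, a line at the mean of each group and a dashed line at the near-floor threshold of 2.49. Nefl is off the floor only in batch 2, where LPS and PBS lie close together, and for Sult4a1 the 4 LPS arrays lie below the 4 PBS arrays.

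Early and mature neuron genes differed in how often they lay above the near-floor threshold. All 10 genes of newborn or immature neurons (Tubb3, Tubb2b, Dcx, Stmn2, Sox11, Nhlh1, Neurod1, Elavl4, Ina and Nsg1) were above the threshold on 18 of 18 arrays. Of the 10 mature genes (Rbfox3, Nefl, Nefm, Map2, Mapt, Slc17a7, Thy1, Sult4a1, Nrn1 and Celf4) 3 were above it on every array, 6 on some arrays and 1 on none. Of the 7 genes of the glutamatergic lineage and layers (Neurod1, Neurod2, Neurod6, Tbr1, Bcl11b, Slc17a6 and Slc17a7) the counts were 5, 1 and 1. Detection depends on the brightness of each probe set, so these counts rank no transcript above another. Some probe sets also repeated 1 value on several arrays well above the threshold. Examples are Nhlh1 at 3.99, Rbfox3 at 5.89 and Neurod2 at 7.82. A value above the threshold may thus be background of its probe set, which was not tested.

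The list means followed the arrays in much the same way. The early mean was 8.70 to 10.45 on the LPS arrays, against 9.33 to 12.15 on the PBS arrays, and 9.39 to 9.57 on the DAP12KO arrays, against 7.99 to 10.25 on the UT arrays. The mature mean was 5.36 to 7.17 for LPS, against 5.53 to 9.11 for PBS, and 4.23 to 5.05 for DAP12KO, against 4.25 to 5.54 for UT. The glutamatergic mean was 7.46 to 8.63 for LPS, against 7.61 to 10.88 for PBS, and 5.91 to 6.74 for DAP12KO, against 5.01 to 8.04 for UT. The PBS arrays of batch 2 gave the top of each PBS range, and the 4 DAP12KO arrays lay within the UT range except for 1 array in the mature mean.

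Set against the mean of the 4 UT arrays of batch 4, the PBS arrays of batch 2 had all 29 tested members higher, by a median of 3.11 log2 units. Markers of other cells were higher on the same arrays too, by a median of 3.56 for radial glia (16 of 16) and 4.41 for mural cells and fibroblasts (5 of 5), and their part in the neuronal values was not tested. The LPS arrays of batch 2 had 28 of 29 higher, by a median of 1.24. For the PBS arrays the median was 2.75 over early genes, 3.91 over mature genes and 3.83 over glutamatergic genes, and for the LPS arrays it was 1.09, 1.87 and 1.18. The PBS array of batch 4 had 25 of 29 higher with a median of 1.01, against 0.04 over all genes tested. The LPS array of batch 4 had 20 of 29 higher with a median of 0.35, against -0.06 over all genes tested. How many of all genes lay higher was not counted for any of these arrays, so the counts have no background share. In batch 1 the medians were 0 for LPS and 0.04 for PBS, and the UT arrays of batch 3 had a median of -1.21 with 3 of 29 higher. These values cross batches except in batch 4, and batch and group cannot be told apart in the others.

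**Figure D3:**
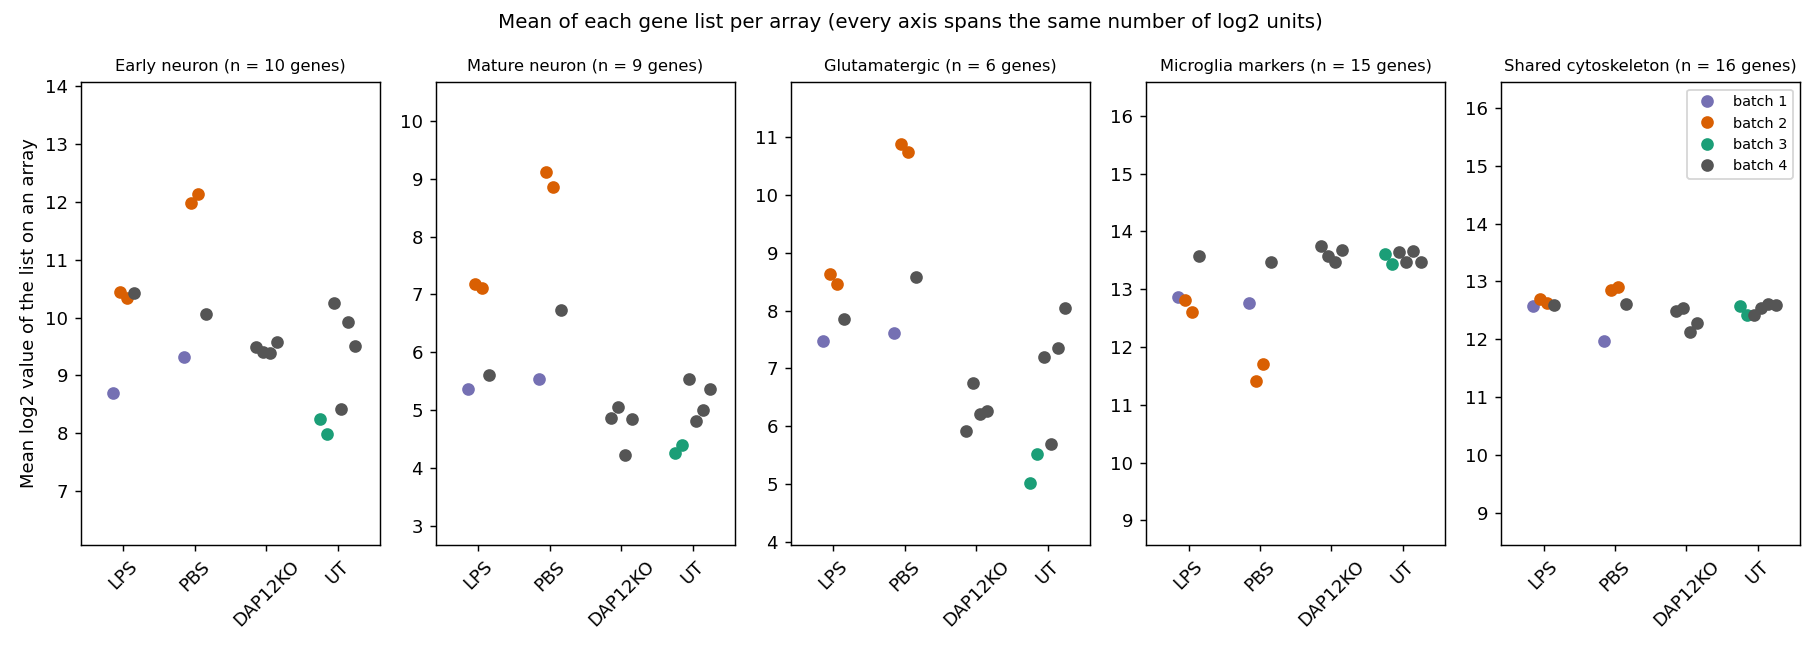
Mean log2 value per array of the early, mature and glutamatergic members, of 15 microglia markers and of 16 cytoskeleton genes used by all cells, by group, with points coloured by batch and every axis spanning the same number of log2 units. The PBS arrays of batch 2 are highest for the neuronal lists and lowest for the microglia markers.

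LPS was set against PBS to see how an inflamed dam bears on the microglia of its embryos. In the limma fit over all 18 arrays with batch as a term, 2 of the 29 tested members passed (Benjamini-Hochberg adjusted p under 0.05 over 11630 genes), both lower in LPS, against 0.086% of all genes tested in that direction and 0.0086% in the other. The list was chosen with earlier results of these data known, so the excess over that share is no independent support. Sult4a1 averaged 2.34 ± 0.11 with LPS and 5.44 ± 1.25 with PBS (SD, n = 4 arrays each) with a fitted difference of -3.10 ± 0.54 log2 (SE, adjusted p = 0.0444 in limma). Sult4a1 was bright enough to be tested only through its PBS arrays, since its mean over the other arrays was 2.44, and 3 of 4 LPS values lay near the floor, so its call is no independent support and its size is a difference against background. The same held for the filter on Thy1 (2.47), and the other 27 members passed the filter without the PBS arrays. Mapk8ip1 averaged 4.23 ± 2.19 with LPS and 7.41 ± 1.91 with PBS (SD, n = 4 arrays each) and fell by 3.17 ± 0.56 (SE, adjusted p = 0.0453 in limma). Of its 4 LPS values 2 lay near the floor, those of batches 1 and 4, so its differences there are against background. Within batches 1, 2 and 4 the LPS minus PBS difference of Sult4a1 was -1.23, -3.63 and -3.91, and that of Mapk8ip1 was -6.09, -2.23 and -2.16. Sult4a1 was the 1 member whose LPS arrays all lay below all PBS arrays, a pattern shown by 1.36% of all genes tested.

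Both calls lie close to the threshold. Each rests on the brighter probe set of its gene. The other probe set of Sult4a1 was at 2.19 on every array. That of Mapk8ip1 had a mean of 2.31 and was above the near-floor threshold on 2 arrays, so neither was tested. With no filter each gene had an adjusted p of 0.14 in limma. With the LPS and PBS arrays alone it was 0.453 for each in limma. With no batch term it was 0.501 for Mapk8ip1 and 0.126 for Sult4a1. The main fit shares its spread with the DAP12KO and UT arrays, where Mapk8ip1 had an SD of only 0.05 and 0.18. With low values set to the near-floor threshold the differences were -2.95 for Sult4a1 and -3.12 for Mapk8ip1, each with an adjusted p of 0.0507. Leaving out any of the 4 arrays of batch 2, any of the 6 UT arrays, or DAP12KO replicate 1, 2 or 4 left 0 members past the threshold, and leaving out DAP12KO replicate 5 left Sult4a1 alone. Leaving out either array of batch 1 gave nearly the same test and 4 members, the added ones being Nefm and Thy1. Over these omissions the adjusted p ran between 0.00632 and 0.257 for Sult4a1 and between 0.0133 and 0.177 for Mapk8ip1.

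Of the 29 members 28 had an LPS minus PBS difference below 0, against 57.5% of all genes tested, and the median was -1.03, against -0.12 over all genes. Nefl was the exception at 0.09 ± 0.28. The high values on the PBS arrays of batch 2 were known when the list was chosen. The excesses over all genes given here are therefore no independent support. An unadjusted p under 0.05 with LPS lower was reached by 9 of the 29, against 8.98% of all genes: Sult4a1, Mapk8ip1, Nefm (-1.26 ± 0.36), Rbfox3 (-2.38 ± 0.85), Rtn1 (-1.18 ± 0.45), Slc17a6 (-2.52 ± 0.97), Dcx (-1.03 ± 0.40), Tbr1 (-1.77 ± 0.73) and Neurod6 (-1.47 ± 0.64). Apart from the pair that passed, none of these met the adjusted threshold, and 0 of 29 reached an unadjusted p under 0.05 with LPS higher, against 3.47% of all genes. By role, 8 of 8 microtubule genes lay below 0 with a median of -0.61, 4 of 4 RNA-binding proteins with -1.30, 7 of 7 transcription factors with -0.93, and 6 of 6 membrane and other proteins with -1.07. The median was -0.83 over early genes (10 of 10 below 0), -1.09 over mature genes (8 of 9) and -1.20 over glutamatergic genes (6 of 6).

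The batches did not carry these differences equally. Within batch 2, 28 of 29 members (96.6%) were lower in LPS, against 56.6% of all genes, with a median of -1.64. That excess rests on PBS arrays whose high values were known when the list was chosen. Within batch 4 the count was 20 (69%), against 54% of all genes, with a median of -0.42. Within batch 1 it was 15 (51.7%), near the 48.1% of all genes, with a median of -0.13. In each of the 3 batches 11 members were lower, against 15.7% of all genes. Without the PBS arrays of batch 2, 18 of 29 members lay below 0 with a median of -0.23 against -0.08 over all genes, and 0 passed in limma (smallest adjusted p = 0.0649). Mapk8ip1 was then at -4.12 and Sult4a1 at -2.57, while 10 members turned to higher in LPS. In batch 2 the mean of the 15 microglia markers was 12.80 and 12.61 for LPS, against 11.40 and 11.70 for PBS, and all 15 lay higher in LPS there. Its part in the lower neuronal values was not tested.

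**Figure D4:**
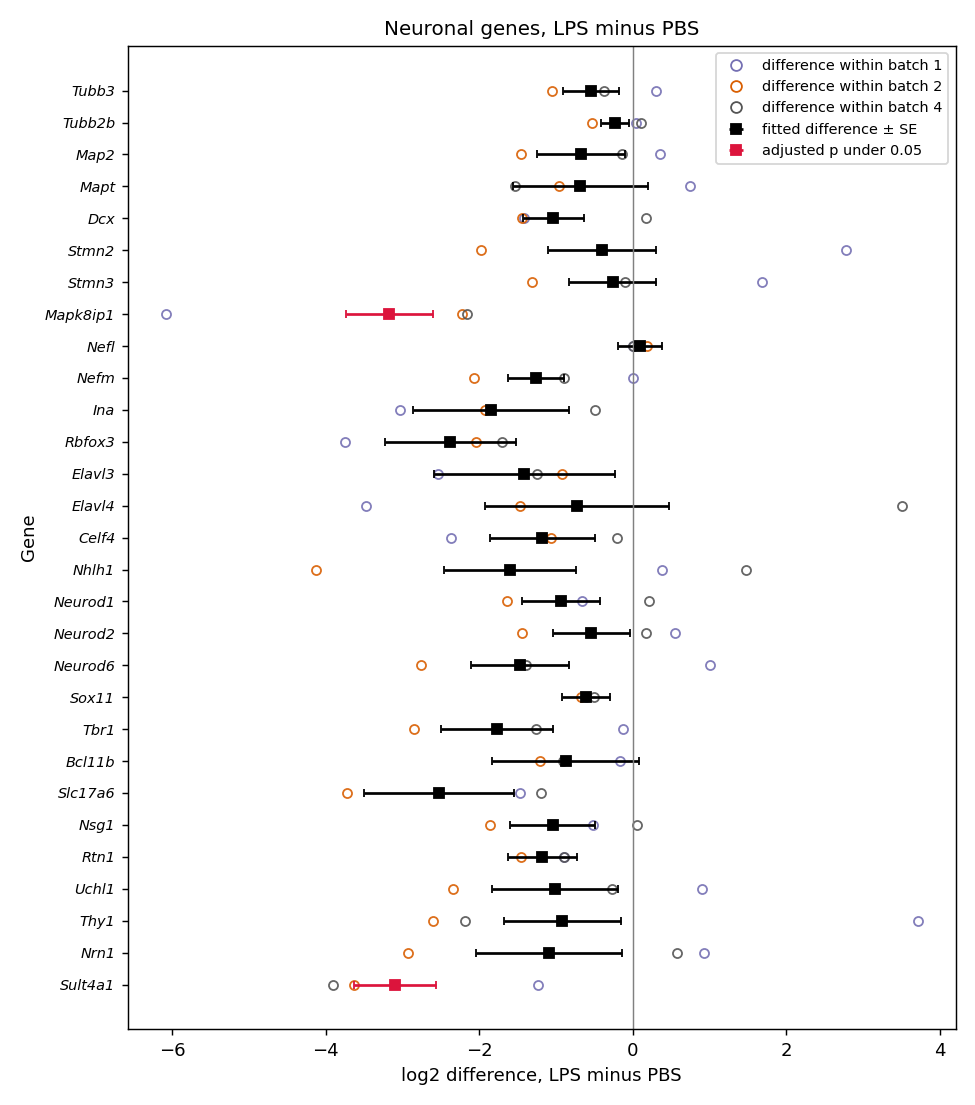
LPS minus PBS log2 difference of the 29 tested members from the fit (squares, bars are 1 SE) and within batches 1, 2 and 4 (open circles). Mapk8ip1 and Sult4a1, in red, are the 2 with an adjusted p under 0.05, and the circles of batch 2 lie left of 0 for 28 of 29 genes while those of batch 1 lie on both sides.

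The comparison of DAP12KO with UT asks what the loss of the adaptor DAP12 does to embryonic microglia, and the UT arrays of batch 4 set its difference because all DAP12KO arrays lay in that batch. None of the 29 members passed in limma, and of all genes tested 0% did (0 of 11630, of which 291 were lower and 346 higher at an unadjusted p under 0.05). The smallest adjusted p of a member was 0.854. Of the members 21 were lower, 6 higher and 2 equal at the floor (Nefl and Thy1), with 47.5% of all genes lower. The median was -0.34, against 0.02 over all genes.

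No role group held a member that passed. All 7 transcription factors lay below 0 with a median of -0.60, led by Nhlh1 at -1.91 ± 0.86 and Tbr1 at -1.82 ± 0.73. Tbr1 averaged 4.50 ± 1.19 in DAP12KO and 6.31 ± 0.97 in the UT arrays of batch 4 (SD, n = 4 each), and the groups overlapped through UT replicate 2 alone (4.98). Elavl3 lay at -2.70 ± 1.18, and without DAP12KO replicate 4, which had 2.28, it lay at -1.06. The 95% interval of the difference was -3.42 to -0.21 for Tbr1, -3.80 to -0.02 for Nhlh1 and -5.28 to -0.11 for Elavl3, before any adjustment. These 3 were the members with an unadjusted p under 0.05, against 2.5% of all genes in that direction, and 0 of 29 did so in the other, against 2.98%.

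Ina went the other way at 2.12 ± 1.01 and Elavl4 at 1.29 ± 1.20. Map2 (-1.12 ± 0.57), Mapt (-1.70 ± 0.88) and Stmn3 (-1.07 ± 0.57) lay below 0, and each had its lowest value of all arrays on DAP12KO replicate 4. Sox11 lay at -0.05 ± 0.31 with an interval of -0.73 to 0.63 on its brightest probe set, and its other 5 probe sets lay lower, between -1.15 and -0.39, with a smallest adjusted p of 0.802 when each probe set was tested in limma on its own. None of the 29 had its 4 DAP12KO values all below or all above the 4 UT values of batch 4, against 1.18% and 1.2% of all genes. For Tbr1, Dcx, Bcl11b and Elavl3 only UT replicate 2 of batch 4 kept the groups from separating. How many of all genes did so was not counted. That array had a member mean of 6.58 and a Gapdh difference of 2.23. Without it the member median was -0.58, and 0 members passed in limma (smallest adjusted p = 0.85). The microglia marker mean was 13.47 to 13.75 on the DAP12KO arrays, against 13.44 to 13.66 on the UT arrays, and the ranges overlapped.

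**Figure D5:**
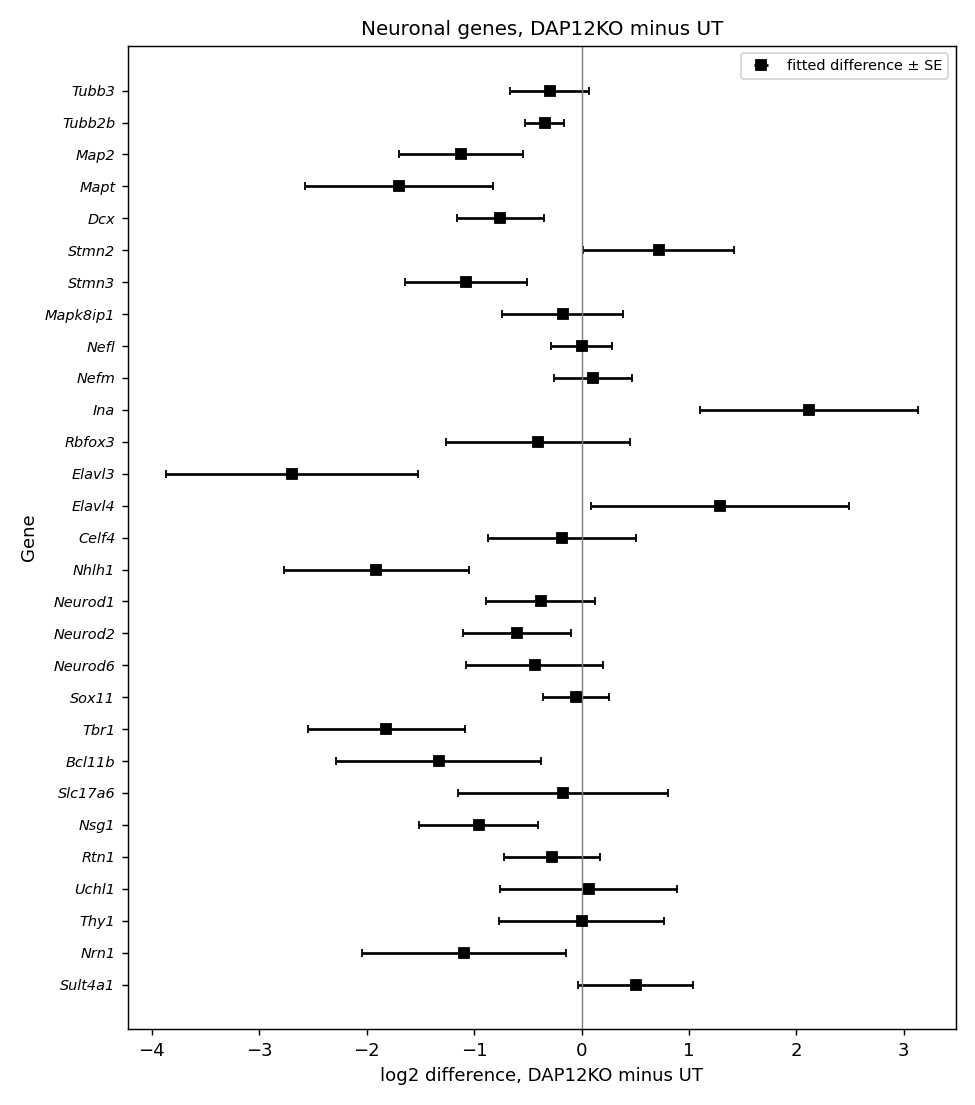
DAP12KO minus UT log2 difference of the 29 tested members from the fit (squares, bars are 1 SE). None passed the adjusted threshold, 21 lie left of 0, and Elavl3 and Ina are the extremes at -2.70 and 2.12.

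The difference between the 2 responses, LPS minus PBS less DAP12KO minus UT, was tested for each member, and 0 of 29 passed in limma, as did 0% of all genes. It was largest for Ina at -3.97 ± 1.43, Sult4a1 at -3.60 ± 0.76 and Mapk8ip1 at -3.00 ± 0.80, with a smallest adjusted p of 0.449. An unadjusted p under 0.05 with a difference below 0 was reached by 4 of 29, against 5.79% of all genes, and by 0 of 29 above 0, against 2.32%. The difference lay below 0 for 18 of the 29, against 57.7% of all genes. Without either array of batch 1 Sult4a1 passed in limma (adjusted p = 0.0414 without the LPS array and 0.0402 without the PBS array). Batch 1 held 1 LPS and 1 PBS array, so with either left out the other no longer bears on the comparison. Both omissions thus amount to nearly the same test. Sult4a1 was also tested only through its PBS arrays (mean 2.44 over the other arrays), so its pass is no independent support.

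Genes outside the list moved with these members across arrays. Of 36 other neuron genes tested, 27 had the PBS arrays of batch 2 as their 2 highest, and so did 14 of 16 radial glia and progenitor genes, against 12.2% of all genes. These lists too were chosen with earlier results of these data known. In LPS minus PBS all 36 other neuron genes lay below 0, against 57.5% of all genes, with a median of -0.88, and 0 passed in limma. The lowest p were those of Cplx2, a regulator of vesicle fusion, at -2.27 ± 0.49 (adjusted p = 0.101), and Pclo, a scaffold of the presynaptic active zone, at -2.01 ± 0.53 (adjusted p = 0.169). In DAP12KO minus UT 28 of the 36 lay below 0, against 47.5% of all genes, with a median of -0.39. The radial glia mean was 11.12 and 11.08 on the PBS arrays of batch 2, against 6.74 to 9.17 elsewhere, with 11 of the 16 genes above the threshold on every array.

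The non-member gene most like the mean of the members over the 18 arrays was Fabp7, a fatty acid binding protein of radial glia, with Pearson r = 0.96. It was followed by the alpha tubulin Tuba1a (0.94), Nrep (0.94), Tmod2, a capping protein of neuronal actin (0.94), Rbfox2 (0.93), Tsc22d1 (0.93), Aff3 (0.93), Nr2f1 (0.93), Mageh1 (0.93) and Wnt5a (0.93). Over the 14 arrays outside batch 2 these r lay between 0.64 and 0.84, and over the 10 arrays of batch 4 between 0.55 and 0.83. The arrays share batches, and the values describe likeness only.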

How the data were processed

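RNA from sorted microglia was amplified, labelled and hybridized to Affymetrix mouse genome arrays (Mouse430_2), per the labels' protocols. The authors deposited log2 values for 45101 probe sets on each of 18 arrays, made with RMA per the submitters' processing notes. The sources used here do not say whether all arrays were processed together. Depth has no meaning for arrays, and their number limits the precision. Of the probe sets, 34958 named 1 gene, 932 several and 9211 none in the platform annotation. Each of 18194 genes was read from its single-gene probe set with the highest mean, and 11630 with a mean at or above the 40th percentile of probe set means (log2 2.49) were tested. All 18 arrays entered one limma 3.58.1 fit (R 4.3.3) with a mean per group, batch as an additive term and a variance prior that follows intensity, with 11 residual degrees of freedom. P-values were two-sided and adjusted by Benjamini-Hochberg over all genes tested, with a threshold of 0.05. Each array is a pool per dam, taken as independent. The fit was tested on simulated data. Python 3.11.15 and matplotlib 3.10.9 drew the figures.

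The members and lists were chosen with earlier results of these data known, and the high neuronal values on the PBS arrays of batch 2 were already known. All 30 members are named. Values per array are given for those with the lowest p in a comparison and for some with the widest range in their role group, and other lists are named by at most 3 genes with the lowest p. The 10 most similar genes were ranked by Pearson r to the member mean. Alternatives were other filters, no batch term, the compared groups alone, a replicate block, no variance trend, array weights, quantile normalization, the mean of all probe sets of a gene, a raised floor, omission of batch 2 or its PBS arrays, each array left out in turn and, added after seeing the data, each probe set on its own. Numbers in the labels were not used to pair arrays in the main fit.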

Additional observations from a re-analysis of the deposited data

Results flagged for a closer look

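Within a group of 4 or 6 arrays, 14 of 112 sets of values had 1 array whose gap to the others exceeded Dixon's limit. Chance gives about 1 set in 20 only for independent values of a single population. The LPS, PBS and UT groups mix batches, and some sets had all other arrays tied at the floor or a plateau. The count is therefore not to be read against that rate. The LPS array of batch 1 was lowest of its group for Tubb3 (9.893, others 12.67 to 13.18), Elavl4 (4.582, others 8.51 to 8.817) and Ina (3.123, others 8.02 to 8.422), and highest for Thy1 (5.904, others 2.21 to 2.331). The LPS array of batch 4 was highest for Nhlh1 (7.278), with the other LPS arrays all at 3.985. The PBS array of batch 4 was lowest for Mapk8ip1 (4.549, others 8.10 to 8.494).

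Among DAP12KO arrays, replicate 4 was lowest for Elavl3 (2.282, others 8.389 to 9.541) and highest for Uchl1 (9.95, others 6.701 to 7.001). Replicate 5 was highest for Sult4a1 (4.41, others 2.257 to 2.269), Nefm (2.623) and Slc17a7 (2.329), the last 2 with the other arrays at 2.193. Among UT arrays, replicate 3 of batch 3 was lowest for Neurod6 (3.847, others 6.174 to 6.892), replicate 6 of batch 4 highest for Slc17a6 (7.778, others 2.193 to 3.132), and replicate 1 of batch 4 highest for Nrn1 (7.359, others 2.193 to 3.535). All 14 values are log2 values of single arrays.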

How the results depend on the processing

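Of the count of members lower in LPS (2 as reported), 0 remained with no filter, when genes under the 60th percentile were dropped, with no batch term, with the compared groups alone, with no variance trend, with the mean of all probe sets of a gene, with low values raised to the 40th percentile, without batch 2, without its PBS arrays, and with each probe set tested on its own. Quantile normalization left 1, array weights gave 9, and leaving out single arrays gave 0 to 4. With a replicate block by label number the count was 0 and the member median -1.25. Deviations from the group means, which still hold the batch differences, correlated at 0.39 and 0.44 for arrays of the same number in batch 2. Elsewhere they lay between -0.04 and 0.06. In the residuals of the main fit, with batch taken out, both pairs of batch 2 were at -0.29. The group and batch terms constrain these residuals, so they cannot decide whether arrays of the same number were paired. Pairing by number was not assumed in the main fit. The member median of LPS minus PBS was -0.23 without batch 2 or its PBS arrays, and -1.38 to -0.80 over single omissions. DAP12KO minus UT gave 0 members throughout, with a median of -0.34 as reported, -0.050 with no batch term (15 of 29 lower, against 21) and -0.58 to -0.24 over single omissions. The difference of the responses gave 1 member with array weights and 0 to 1 over single omissions. Over all genes, 11 passed in LPS minus PBS, against 826 with array weights, 13 with quantile normalization, 9 without the PBS arrays of batch 2, 6 with probe set means, 5 without batch 2, 3 with no trend or raised low values, 1 with no filter, 0 with the 60th percentile filter, no batch term, the compared groups alone or the block, and 0 to 120 over single omissions. In DAP12KO minus UT 0 passed, against 0 to 6 over single omissions. Without batch 2 or its PBS arrays, LPS minus PBS turned positive for Stmn2 (1.18), Map2 (0.11), Elavl4 (0.0092), Stmn3 (0.79), Neurod2 (0.36), Uchl1 (0.32), Thy1 (0.76), Nrn1 (0.75), Tubb2b (0.069) and Nhlh1 (0.93). With no batch term, DAP12KO minus UT changed sign for Tubb3 (0.32), Neurod6 (0.10), Neurod1 (0.047), Slc17a6 (0.44), Celf4 (0.65), Rtn1 (0.071), Uchl1 (-0.073) and Sox11 (0.35), and with array weights for Uchl1 (-0.57). Single omissions spanned 0 in LPS minus PBS for Elavl4 (-2.14 to 0.19), Stmn2 (-1.46 to 0.11) and Stmn3 (-0.91 to 0.0021). In DAP12KO minus UT they did so for Celf4 (-0.71 to 0.28), Neurod1 (-0.70 to 0.021), Rbfox3 (-1.31 to 0.49), Rtn1 (-0.63 to 0.039), Slc17a6 (-0.67 to 1.07), Sox11 (-0.46 to 0.12), Sult4a1 (-0.031 to 0.69) and Uchl1 (-0.71 to 0.38). The cause of these shifts was not tested beyond the arrays or genes that each setting removes. Over 30 alternatives per comparison, single members kept direction and side of the threshold in 783 of 864 values for LPS minus PBS and 695 of 721 for DAP12KO minus UT. Many of these settings could not move a difference, because they left out arrays that do not enter it. The LPS minus PBS median stayed at -1.03 with any DAP12KO or UT array left out. The DAP12KO minus UT median stayed at -0.34 with any LPS or PBS array left out. These tallies are therefore no measure of robustness. Values near the floor have no order among themselves.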

Other observations

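Other marker lists were read on the same arrays. Calb2, a calcium-binding protein of Cajal-Retzius and other neurons, lay at -3.58 ± 0.69 log2 in LPS minus PBS (adjusted p = 0.0648 in limma). It was the extreme of its list, since the 5 tested Cajal-Retzius markers had a median of -0.13. Of these 4 lay below 0, against 57.5% of all genes, and Ndnf lay above 0 at 1.69 ± 1.27. Of the 2 tested oligodendrocyte precursor markers, Olig1 lay at -3.51 ± 0.79 (adjusted p = 0.107), and Sox10 was near the floor on all 18 arrays. Of 16 radial glia genes 15 lay below 0, against 57.5% of all genes, with a median of -0.93, led by Tnc at -2.95 ± 0.73 (adjusted p = 0.146). Itgam, an integrin subunit of microglia, lay at 2.25 ± 0.43 (adjusted p = 0.0648). All 15 microglia markers lay above 0, against 4911 of 11630 genes tested, with a median of 0.50. None of these passed the threshold.

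Markers of inhibitory neurons were dim, with 10 of 13 GABAergic genes on the array tested and 3 above the near-floor threshold on every array. Their median LPS minus PBS difference was -0.16 with 5 of 10 below 0, and their median on the PBS arrays of batch 2 lay 0.92 above the UT arrays of batch 4. That excess was 3.16 for deep-layer and subplate genes (9 of 9 higher), 2.02 for hippocampal field genes (7 of 10), 1.88 for upper-layer genes (4 of 7), and 3.56 for radial glia (16 of 16). It was 2.99 for Cajal-Retzius markers (5 of 5). Among markers of other cell types it was 4.41 for mural cells and fibroblasts (5 of 5), 4.15 for oligodendrocyte precursors (2 of 2), 2.45 for choroid plexus (2 of 3), 1.78 for astrocytes (4 of 4) and 0.79 for endothelium (2 of 3). For cytoskeleton genes used by all cells it was 0.36 (11 of 16). In DAP12KO minus UT the lists gave 0 passed genes, and genes with a low unadjusted p included Lmna, a nuclear lamin, at -2.81 ± 1.07 (adjusted p = 0.831), Gng3, a G protein subunit of neurons, at -2.63 ± 0.76 (adjusted p = 0.652), and Mfap4, written on the intermediate progenitor list, at -2.64 ± 1.06 (adjusted p = 0.854).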
